A study of Mus musculus with 18 samples.

Results

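The 49 genes described here encode proteins that bring a cell from G2 phase through mitosis and cytokinesis. They were listed by function and not by a measured value, though earlier results of these data were known when the list was chosen. The list holds 2 genes for a proliferation marker and a transcription factor, 6 for cyclins, Cdk1 and Cdc25 phosphatases, 3 for mitotic kinases, 5 for the spindle checkpoint and 4 for the chromosomal passenger complex. A further 8 genes encode centromere and kinetochore proteins, 5 spindle motors and spindle proteins, 6 proteins of the central spindle and cytokinesis, 4 proteins of anaphase and protein degradation, and 6 proteins that shape chromosomes. Each of the 49 symbols was matched to 1 of the 55487 Ensembl genes in the files, and all 49 were among the 15318 genes that passed a filter on low counts.

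The counts came from RNA sequencing of WEHI-231 cells, a murine B cell lymphoma line with a BCR of the IgM class. The lines compared were parental cells, #A-59 and #B-20, the latter both clones mutant for TFEB. Each was left untreated (0 h) or kept for 6 or 18 h with anti-IgM F(ab')2 at 10 µg/ml to stimulate the BCR. There were 2 libraries in each of the 9 groups. The clones were made by electroporation of Cas9 with a crRNA against exon 3 or exon 5 of Tfeb, followed by dilution to single clones. Each clone descends from 1 cell, and the sources used here do not say whether the parental cells were cloned, so that loss of TFEB and other differences between cell lines cannot be told apart. The libraries of a group were numbered replicates, and p-values measure the spread between these libraries.

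Entry into mitosis depends on Cdk1, which is activated by A and B type cyclins and by the removal of inhibitory phosphates through Cdc25 phosphatases. Many genes of mitosis are transcribed periodically, with a peak in G2 and mitosis, and their promoters often hold a CCAAT box and a cell cycle genes homology region (CHR). In WEHI-231 cells, ligation of the BCR is known to cause growth arrest in G1 phase and apoptosis. In RNA of whole cultures, fewer cells in G2 and mitosis and less RNA per such cell cannot be told apart.

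Library totals ranged from 11223588 to 29655262 counts, and the 49 genes took 0.967 to 1.44% of them. Tfeb, the targeted gene at chr17:47737037-47792416 of GRCm38.p6, had 79.2 to 99.9 CPM (TMM-scaled counts per Mio) in the parental libraries and 25.5 to 54.1 CPM in those of the clones. All 10 B cell markers passed the filter, with a summed level of 6689 to 14320 CPM, whereas the 6 T cell markers did not exceed 1.04 CPM in sum. The 6 myeloid markers summed to 1.92 to 27.9 CPM, and 3 of them passed the filter, while Lyz2 had 0 counts in 16 libraries and Cd14 in 17. The replicates of #B-20 at 6 h and of #A-59 at 6 h lay farthest apart, with a chi-square of 58.2 and 33.2 per gene, against 3.57 to 16.7 in the other 7 groups. Replicate 2 of #B-20 at 6 h had 9.44% of its counts in the 20 highest genes, against 6.24 to 7.26% in the other libraries. It had the most genes with a count (24256) of all libraries. Replicate 1 of #A-59 at 6 h also stood apart in that its deviations from the other libraries rose with the GC content of the genes (Spearman's rho 0.47 across all genes tested), as did those of replicate 1 of #A-59 at 0 h (0.32). The 4 libraries of #B-20 at 0 and 6 h had the opposite relation (-0.37 to -0.23), and the other 12 libraries lay between -0.11 and 0.10.

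All 49 mitosis genes were counted in every library, with at least 418 counts each. In untreated parental cells, Mki67 had the highest level per kilobase of its longest transcript (339.8 CPM per kb), followed by Top2a (229), Smc4 (108), Ccna2 (90.4), Cdc20 (90.1), Ncapd2 (84.6) and Bub1b (84.0). Cdc25b had the lowest (6.94), below Spc25, Cdc25c (12.6) and Nuf2. As the libraries were not stranded, reads from a stretch where exons of genes overlap on opposite strands cannot be told apart. By whole gene spans, introns included, a gene on the opposite strand overlapped 26 of the 49 genes. Among them were Cdk1 (Ank3), Cdc25b (Spef1), Aurka (Cstf1 and Fam210b) and Kif20a (Brd8 and Cdc23). Whether their exons overlapped was not examined. No counted gene overlapped Bub1b, Cenpa, Ccnb1, Ccnb2, Aurkb or Mad2l1 and 13 further members.

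The promoters of genes of these classes are shown because the members share sequence features that the choice of the list did not use. RefSeq promoter windows of GRCm38.p6, from 250 bases before to 50 bases after a gene's start, were matched by symbol for 40 of the 49 genes, in 43 windows. CCAAT, on either strand, was in 79.1% of the members' windows and in 37.4% of all 32851 windows. The CHR letters TTTGAA or TTCGAA were in 81.4% and 19.2%, and both kinds of motif together in 72.1% and 7.52%. CACGTG, the palindromic E-box core within the CLEAR element that TFEB recognises, was in 3 of the 43 windows (6.98%, those of Ttk, Anln and Espl1) and in 7.15% of all. The windows of Cdk1 (chr10:69352863-69353162, minus strand), Plk1 (chr7:122159185-122159484, plus strand), Bub1b (chr2:118597961-118598260, plus strand), Cenpa (chr5:30666636-30666935, plus strand) and Ccnb1 (chr13:100786437-100786736, minus strand) read, 5′ to 3′ on the strand of the gene, with CCAAT, its complement ATTGG and the CHR letters in capitals:
Cdk1: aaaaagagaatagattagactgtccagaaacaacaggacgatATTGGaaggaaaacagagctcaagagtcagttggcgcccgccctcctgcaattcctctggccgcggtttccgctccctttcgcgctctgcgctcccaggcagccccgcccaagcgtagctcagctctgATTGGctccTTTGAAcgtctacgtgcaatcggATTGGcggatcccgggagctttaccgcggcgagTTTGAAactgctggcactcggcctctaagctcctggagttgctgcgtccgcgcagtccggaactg
Plk1: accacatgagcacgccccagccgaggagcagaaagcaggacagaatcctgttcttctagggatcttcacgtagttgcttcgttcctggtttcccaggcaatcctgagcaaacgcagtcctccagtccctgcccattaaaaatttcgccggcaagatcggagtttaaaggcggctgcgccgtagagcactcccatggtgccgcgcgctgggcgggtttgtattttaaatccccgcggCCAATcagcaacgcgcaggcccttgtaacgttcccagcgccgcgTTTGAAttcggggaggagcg
Bub1b: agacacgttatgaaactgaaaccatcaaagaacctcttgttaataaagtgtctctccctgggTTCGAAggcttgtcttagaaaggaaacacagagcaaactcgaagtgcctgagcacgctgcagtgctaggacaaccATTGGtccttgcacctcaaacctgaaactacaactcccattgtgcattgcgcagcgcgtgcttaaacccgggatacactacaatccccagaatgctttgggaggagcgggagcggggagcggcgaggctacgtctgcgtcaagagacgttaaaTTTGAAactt
Cenpa: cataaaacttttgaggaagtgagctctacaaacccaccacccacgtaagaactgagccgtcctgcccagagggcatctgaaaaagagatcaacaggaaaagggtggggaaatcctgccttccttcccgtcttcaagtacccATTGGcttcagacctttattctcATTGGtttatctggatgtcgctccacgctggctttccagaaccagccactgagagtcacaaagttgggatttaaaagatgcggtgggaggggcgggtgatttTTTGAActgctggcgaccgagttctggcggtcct
Ccnb1: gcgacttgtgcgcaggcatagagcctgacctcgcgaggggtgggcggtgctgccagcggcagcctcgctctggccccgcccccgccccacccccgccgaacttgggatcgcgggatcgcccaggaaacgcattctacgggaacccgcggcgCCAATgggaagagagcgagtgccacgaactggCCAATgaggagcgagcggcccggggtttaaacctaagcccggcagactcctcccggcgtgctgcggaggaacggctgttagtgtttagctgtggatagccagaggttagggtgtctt
Relative to the start used for each window, the CHR letters began at base -15 in Cdk1, with further letters at -71, and at base 31 in Plk1, 41 and -188 in Bub1b and 17 in Cenpa. The Ccnb1 window held CCAAT at -99 and -67 and no CHR letters. A match describes the letters and no bound site, and a window without them says nothing about the factors.

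Over 20 comparisons, none of the 49 genes passed both limits of the study, an FDR of 0.01 and a log2 fold change beyond 1 in either direction, in edgeR's quasi-likelihood test, nor in DESeq2. Changes of the mitosis genes were thus described at an FDR under 0.01 at any fold, and a gene was said to rise or fall only if it passed that limit. Among all genes tested, both limits were passed by 2.62% at 6 h and 10.3% at 18 h in parental cells, by 1.39% and 8.76% in #A-59, and by 0.385% and 4.8% in #B-20. The counts of mitosis genes at an unadjusted p under 0.05, in the same order, were 10 and 24, 7 and 41, and 5 and 18. Counts at an unadjusted p, here and below, are given without the share of all genes. They are not read as a result about the mitosis genes.

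At 6 h of BCR stimulation few mitosis genes changed. In parental cells 2 of 49 rose and none fell, where 7.34% of all genes passed the FDR in either direction. These were Kif2c, a kinesin that depolymerises microtubules (112 and 103 CPM at 0 h, 141 and 137 at 6 h), with a log2 fold change of 0.37 ± 0.09 (SE, adjusted p = 0.00958), and Cenpa (0.34 ± 0.08 SE, adjusted p = 0.00426). In #A-59, Kif2c (0.39 ± 0.09 SE, adjusted p = 0.00789) and Kif20a, a kinesin of the central spindle (0.39 ± 0.08 SE, adjusted p = 0.00372), rose, against a background of 6.14%. In #B-20, 0 of 49 genes passed in edgeR and in DESeq2, 5 had an unadjusted p under 0.05, and the background was 1.29%. The median log2 fold change of the 49 genes was 0.08 in parental cells, and it was 0.02 for #A-59 and -0.01 for #B-20. Of the further extremes at 6 h, Spc24 had the highest estimate in #A-59 (0.43 ± 0.15 SE, adjusted p = 0.0609) and in #B-20 (0.33 ± 0.15 SE, adjusted p = 0.304). Mki67 had the lowest in parental cells (-0.38 ± 0.11 SE, adjusted p = 0.02) and in #B-20 (-0.35 ± 0.11 SE, adjusted p = 0.0851), and Ube2c in #A-59 (-0.28 ± 0.09 SE, adjusted p = 0.038). None of these passed the FDR. No call at 6 h held without every library in turn: the 2 calls of parental cells were lost on leaving out any of the 4 libraries, and without replicate 2 of #A-59 at 6 h the count in #A-59 became 8.

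At 18 h many mitosis genes fell in #A-59, and few changed in #B-20. In #A-59, 26 of 49 fell (53.1%) and 3 rose (6.12%), beside 17.1% and 14.7% of all genes. In parental cells 9 fell (18.4%) and 4 rose (8.16%), beside 16.2% and 16.4%, so that the share that fell was near that of all genes. In #B-20, 2 fell and 2 rose (4.08% each), fewer than the 11.4% and 11.4% of all genes. The median log2 fold change of the 49 genes was -0.18 in parental cells, and it was -0.40 for #A-59 and -0.14 for #B-20, where that of all genes was 0.04, 0.02 and 0.03. The lowest estimate was that of Bub1b in #A-59 (-0.81), and the estimate lay below 0 in all 3 genotypes for 32 genes and above 0 for 5. The share of all genes with these signs is not given. All 9 genes that fell in parental cells also fell in #A-59, and 17 genes fell in #A-59 that were not called in parental cells. In every one of these calls the libraries at 18 h did not overlap those at 0 h. This was read from the same libraries as the calls and is no further support for them.

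**Figure D1:**
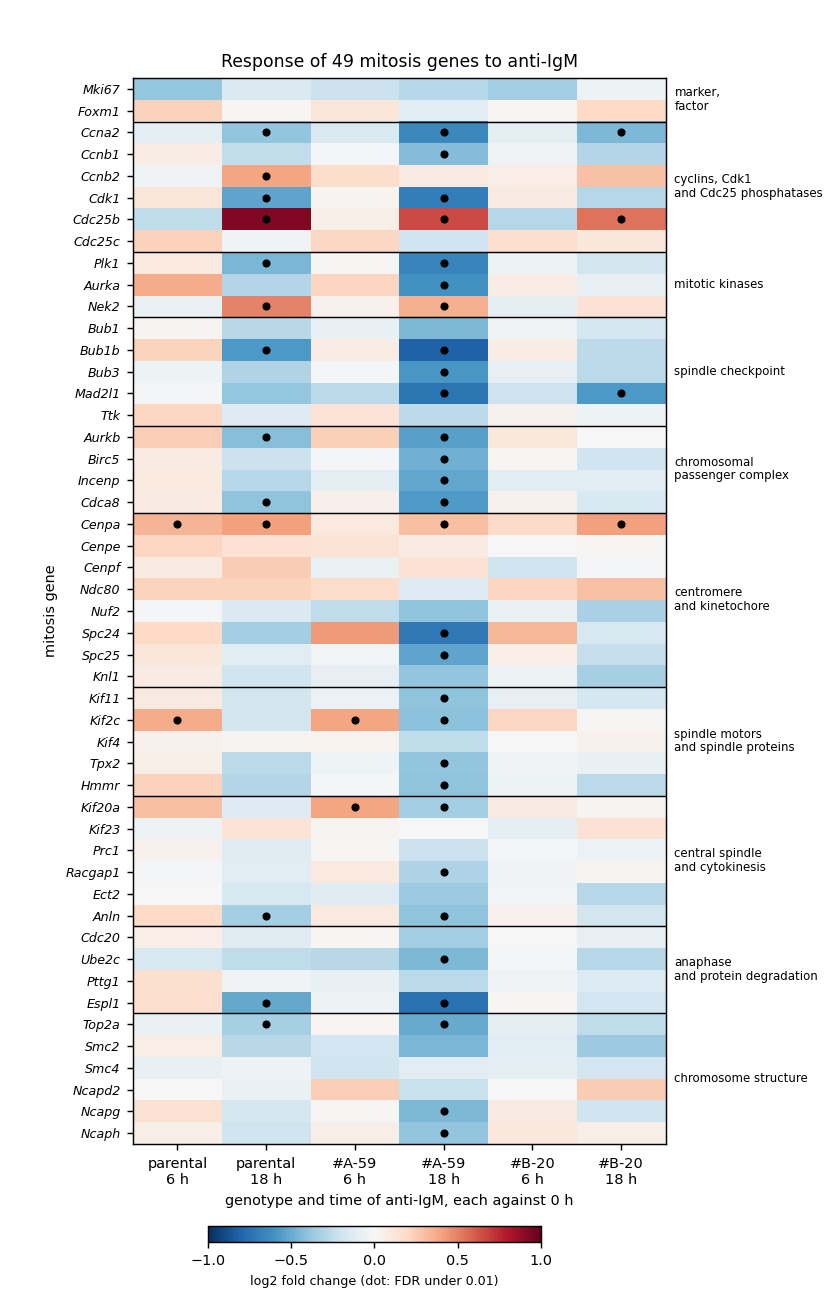
Heat map of the log2 fold change of the 49 mitosis genes (rows, ordered by role) after 6 or 18 h of anti-IgM against 0 h in each genotype (columns), with blue for lower, red for higher and a dot for an FDR under 0.01. The #A-59 column at 18 h holds 29 dots, 26 of them on genes that fell, while that of #B-20 holds 4 and the 6 h columns hold 2, 2 and 0.

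The calls at 18 h were not equally firm. Without replicate 1 at 0 h or at 18 h, in parental cells and in #A-59, a smaller share of all genes passed the FDR as well. A lost call is thus not read as particular to the mitosis genes. Of the 13 calls in parental cells, 6 held without any of the 4 libraries in turn (Cdc25b, Nek2 and Cenpa, which rose, and Bub1b, Cdk1 and Espl1, which fell). The count was 6 without replicate 1 at 0 h, 7 without replicate 2 at 18 h, 8 without replicate 1 at 18 h, and 10 without replicate 2 at 0 h. Of the 29 calls in #A-59, 13 held (Cdc25b, which rose, and Ccna2, Cdk1, Plk1, Aurka, Bub1b, Mad2l1, Aurkb, Incenp, Cdca8, Ube2c, Espl1 and Top2a, which fell), and the count was 13 without replicate 1 at 18 h, which had the lowest summed level of the mitosis genes of all libraries, and 18 without replicate 2 at 0 h. In #B-20 none of the 4 calls held in every case, and the count was 1 without replicate 1 at 0 h or at 18 h, 2 without replicate 2 at 0 h and 7 without replicate 2 at 18 h. The #B-20 estimates at 18 h also went with GC content (Spearman's rho 0.45 across the 49 genes and 0.23 across all genes), while those of parental cells and #A-59 did not (-0.02 and -0.01). The #A-59 libraries at 18 h also had the highest summed level of the 6 myeloid markers, at 27.9 and 27.6 CPM against 7.86 and 9.58 at 0 h, nearly all of it from Itgam (up to 26.3 CPM). Lyz2 and Cd14 had at most 1 count in any library. The part of these differences in the results was not tested.

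The regulators of Cdk1 moved in both directions. Cdc25b (chr2:131186436-131198511), the phosphatase that starts the activation of Cdk1 at the centrosome, had 50.7 and 56.1 CPM at 0 h, 41.4 and 48.0 after 6 h and 95.9 and 106 after 18 h in parental cells. Cdc25b in #A-59 had 46.2 and 47.4, then 48.7 and 48.4, then 68.7 and 79.4 CPM, and in #B-20 48.3 and 48.5, then 36.0 and 43.8, then 72.7 and 68.0 CPM. It was higher at 18 h than at 0 h in each library of each genotype, with a log2 fold change of 0.93 ± 0.11 (SE, adjusted p = 1.43e-06) in parental cells, 0.66 ± 0.11 (SE, adjusted p = 6.73e-05) in #A-59 and 0.54 ± 0.11 (SE, adjusted p = 0.000729) in #B-20. Cdk1 (chr10:69335146-69352912), the kinase that drives entry into mitosis, had 183 and 174 CPM at 0 h, 195 and 193 after 6 h and 121 and 126 after 18 h in parental cells. Cdk1 in #A-59 had 166 and 169.8, then 165 and 178, then 94.9 and 113 CPM, and in #B-20 184 and 185, then 192 and 200.1, then 144 and 159 CPM. It fell in parental cells (-0.53 ± 0.09 SE, adjusted p = 8.79e-05) and in #A-59 (-0.69 ± 0.09 SE, adjusted p = 5.93e-06), and its estimate in #B-20 was -0.29 ± 0.09 (SE, adjusted p = 0.016). Ccnb1, the B type cyclin that partners Cdk1, had 83.0 and 73.9 CPM at 0 h, 85.1 and 80.5 after 6 h and 67.5 and 65.1 after 18 h in parental cells. Ccnb1 in #A-59 had 68.7 and 80.3, then 72.5 and 74.7, then 48.7 and 61.7 CPM, and in #B-20 94.2 and 85.5, then 87.8 and 87.3, then 67.4 and 79.6 CPM. It fell in #A-59 (-0.43 ± 0.11 SE, adjusted p = 0.00502), a call that held in 2 of 4 cases of a library left out. Ccna2, the cyclin of S and G2 phase, was the only member that fell in all 3 genotypes, with changes of -0.40 ± 0.09 (SE, adjusted p = 0.00179), -0.64 ± 0.09 (SE, adjusted p = 1.97e-05) and -0.45 ± 0.09 (SE, adjusted p = 0.000934). Ccnb2 in contrast rose in parental cells, from 88.9 and 86.8 to 112 and 119 CPM (0.40 ± 0.09 SE, adjusted p = 0.00224), a call that was lost on leaving out any of the 4 libraries. Cdc25c had estimates of -0.03, -0.20 and 0.11 and passed in none.

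Among the mitotic kinases, Plk1, which acts on centrosomes and kinetochores, had 179 and 175 CPM at 0 h, 186 and 193 after 6 h and 123 and 134 after 18 h in parental cells. Plk1 in #A-59 had 166 and 149.5, then 178 and 139, then 90.2 and 109 CPM, and in #B-20 152 and 169.5, then 148 and 162, then 129 and 154 CPM. The 18 h libraries lay below the 0 h libraries in parental cells (-0.46 ± 0.12 SE, adjusted p = 0.00445) and #A-59 (-0.66 ± 0.12 SE, adjusted p = 0.000233), and the groups overlapped in #B-20 (-0.18 ± 0.12 SE, adjusted p = 0.266). Aurka, needed for spindle assembly, had 90.1 and 83.7 CPM at 0 h, 115 and 110.1 after 6 h and 65.5 and 76.3 after 18 h in parental cells. Aurka in #A-59 had 87.7 and 79.5, then 96.3 and 98.1, then 49.8 and 60.4 CPM, and in #B-20 90.6 and 88.2, then 91.6 and 96.5, then 84.0 and 85.1 CPM. It fell in #A-59 (-0.60 ± 0.10 SE, adjusted p = 7.35e-05), with a higher level at 6 h than at 0 h in each genotype that did not pass the FDR (adjusted p = 0.0134 in parental cells). Nek2 (chr1:191821449-191833049), a kinase that separates centrosomes, went the other way, from 108 and 110.3 CPM to 155 and 153 in parental cells, from 107 and 107 to 132 and 141 in #A-59, and from 101 and 108 to 106 and 124 in #B-20. Nek2 rose in parental cells (0.50 ± 0.09 SE, adjusted p = 0.000119) and #A-59 (0.36 ± 0.09 SE, adjusted p = 0.00235), while the groups overlapped in #B-20 (0.15 ± 0.09 SE, adjusted p = 0.207). Leaving out any of 4 libraries ended the calls of Nek2 in #A-59 and of Plk1 in parental cells.

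Bub1b (chr2:118598202-118641592), a kinase-related subunit of the spindle checkpoint, had the largest fall of the 49 genes in both parental cells and #A-59. Its levels were 319 and 310.3 CPM at 0 h, 363 and 369.5 after 6 h and 211 and 212 after 18 h in parental cells. Bub1b in #A-59 had 318 and 317, then 326 and 344, then 168 and 194 CPM, and in #B-20 366 and 377, then 379 and 405, then 294 and 327 CPM. The log2 fold change was -0.57 ± 0.08 (SE, adjusted p = 1.9e-05), -0.81 ± 0.08 (SE, adjusted p = 4.88e-07) and -0.26 ± 0.08 (SE, adjusted p = 0.0202) in the 3 genotypes. All 5 checkpoint genes had estimates below 0 in each genotype, of which 1, 3 and 1 passed the FDR. Mad2l1, which with Bub1b inhibits Cdc20, fell in #A-59 (-0.73 ± 0.13 SE, adjusted p = 0.0002) and #B-20 (-0.58 ± 0.13 SE, adjusted p = 0.00206) and had -0.39 ± 0.13 (SE, adjusted p = 0.0226) in parental cells. Bub3 fell in #A-59 (-0.58 ± 0.11 SE, adjusted p = 0.000324), whereas Bub1 and Ttk, the kinases that recruit the checkpoint to kinetochores, passed in no genotype. The 4 subunits of the chromosomal passenger complex, which corrects attachments of kinetochores, all fell in #A-59. Their estimates there lay between -0.57 for Cdca8 and -0.48 for Birc5. In parental cells Aurkb, the kinase of the complex (-0.42 ± 0.09 SE, adjusted p = 0.000818), and Cdca8 (-0.40 ± 0.09 SE, adjusted p = 0.00106) fell, and in #B-20 none did. Birc5, or survivin, had 113 and 104 CPM at 0 h, 117 and 113 after 6 h and 91.8 and 94.9 after 18 h in parental cells. Birc5 in #A-59 had 117 and 114, then 109 and 121, then 73.6 and 92.0 CPM, and in #B-20 121 and 121, then 118 and 125, then 102 and 108 CPM. Its libraries at 18 h were below those at 0 h in each genotype, but only #A-59 passed the FDR (-0.48 ± 0.10 SE, adjusted p = 0.000527).

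**Figure D2:**
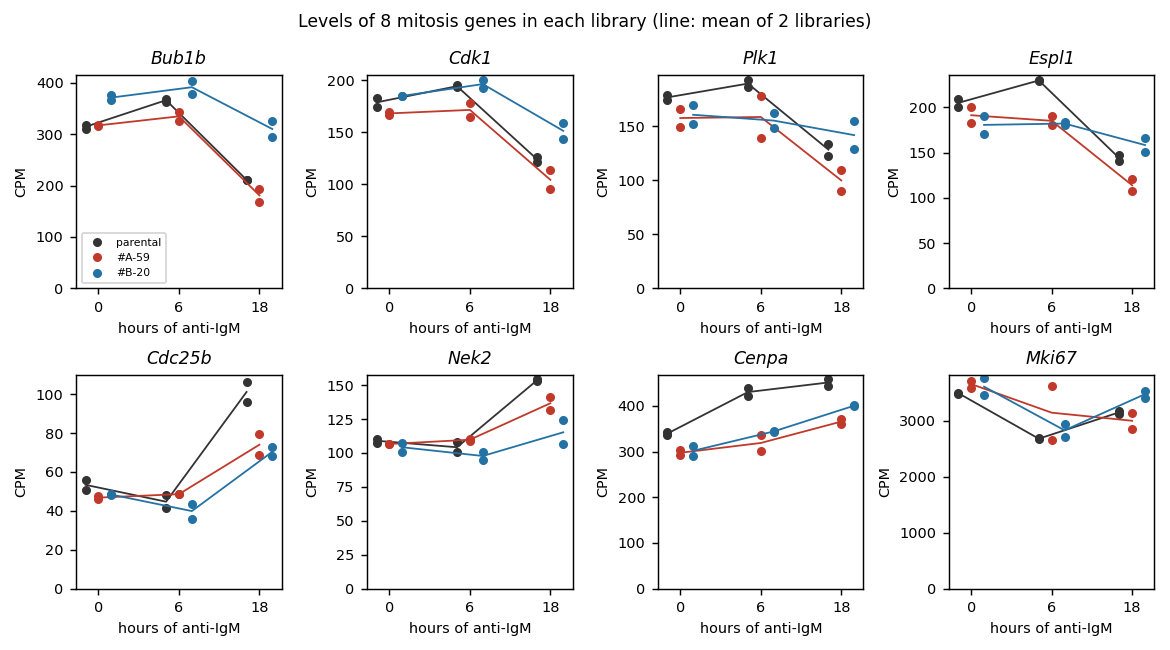
Level of 8 mitosis genes in CPM (vertical axes, from 0) in each library (points) against hours of anti-IgM (horizontal axes, the 3 times evenly spaced) in parental cells, #A-59 and #B-20, with lines through the mean of 2 libraries. Bub1b, Cdk1, Plk1 and Espl1 fell at 18 h in parental cells and #A-59, Cdc25b and Cenpa rose in all 3 genotypes, Nek2 rose in parental cells and #A-59, and Mki67 passed the FDR in none of the responses.

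The genes of the centromere and kinetochore did not move as 1 group. Cenpa (chr5:30666877-30674837), the histone H3 variant that marks centromeres, had 342 and 336 CPM at 0 h, 421 and 439.5 after 6 h and 459 and 443 after 18 h in parental cells. Cenpa in #A-59 had 303 and 291, then 302 and 335, then 360.3 and 371 CPM, and in #B-20 291 and 312, then 343 and 345, then 401 and 399 CPM. It rose at 18 h in all 3 genotypes, with a log2 fold change of 0.41 ± 0.08 (SE, adjusted p = 0.000212), 0.30 ± 0.08 (SE, adjusted p = 0.00347) and 0.41 ± 0.08 (SE, adjusted p = 0.000385). The call in #A-59 was lost on leaving out any of its 4 libraries, that in #B-20 without replicate 1 at 0 h, and that in parental cells held throughout. Cenpe, a kinesin of the kinetochore, had 266 and 245 CPM at 0 h, 293 and 299 after 6 h and 281 and 285 after 18 h in parental cells. Cenpe in #A-59 had 240.3 and 259.7, then 222 and 327, then 242 and 289 CPM, and in #B-20 313 and 291, then 299.8 and 302, then 310.0 and 300.4 CPM. Cenpf, a large kinetochore protein, had 212 and 209 CPM at 0 h, 219.5 and 228 after 6 h and 242 and 260.5 after 18 h in parental cells. Cenpf in #A-59 had 184 and 205, then 152 and 219.9, then 198 and 232 CPM, and in #B-20 231 and 223, then 199 and 197, then 224 and 226 CPM. Neither passed the FDR in any response, and both had a wide spread in #A-59 at 6 h, where replicate 1 was the lowest of all libraries for Cenpe and Cenpf. Ndc80, which binds microtubules, had 68.1 and 56.6 CPM at 0 h, 74.1 and 71.3 after 6 h and 73.4 and 72.5 after 18 h in parental cells. Ndc80 in #A-59 had 69.6 and 67.9, then 68.6 and 88.2, then 59.7 and 66.0 CPM, and in #B-20 68.4 and 59.8, then 73.8 and 74.8, then 80.1 and 76.5 CPM. Its estimates at 18 h were 0.23, -0.13 and 0.29 and did not pass. Of its partners in the Ndc80 complex, Spc24 fell in #A-59 (-0.72 ± 0.15 SE, adjusted p = 0.000892), as did Spc25 (-0.53 ± 0.14 SE, adjusted p = 0.00552), whereas Nuf2 (-0.40 ± 0.13 SE, adjusted p = 0.0161) did not pass. Knl1, the scaffold on which checkpoint proteins gather, passed in no response.

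Kif11, the kinesin that pushes spindle poles apart, had 363 and 333 CPM at 0 h, 372 and 371 after 6 h and 306 and 308 after 18 h in parental cells. Kif11 in #A-59 had 342 and 379, then 289 and 404, then 263 and 284 CPM, and in #B-20 437 and 419, then 405 and 407, then 361 and 397 CPM. The 18 h libraries were below the 0 h libraries in each genotype, but Kif11 passed the FDR only in #A-59 (-0.40 ± 0.11 SE, adjusted p = 0.00816), and that call was lost on leaving out any of its 4 libraries. Tpx2, an activator of Aurka on the spindle, had 303 and 287 CPM at 0 h, 305 and 309.6 after 6 h and 246 and 244 after 18 h in parental cells. Tpx2 in #A-59 had 265 and 281, then 247 and 285, then 190.2 and 226 CPM, and in #B-20 298 and 296, then 277 and 302, then 272 and 294 CPM. It fell in #A-59 (-0.39 ± 0.09 SE, adjusted p = 0.00219). Kif2c and Hmmr also fell there (-0.41 and -0.40), and Kif4 did not (-0.25 ± 0.09 SE, adjusted p = 0.0239). Of the proteins of the central spindle and cytokinesis, Anln, an actin-binding protein of the contractile ring, had 126 and 121 CPM at 0 h, 137 and 146 after 6 h and 92.1 and 103 after 18 h in parental cells. Anln in #A-59 had 118 and 126, then 119.6 and 142, then 84.7 and 99.6 CPM, and in #B-20 128 and 125, then 131 and 129, then 109.8 and 114 CPM. It fell in parental cells (-0.34 ± 0.10 SE, adjusted p = 0.00825) and #A-59 (-0.41 ± 0.10 SE, adjusted p = 0.00239). Kif20a and Racgap1 fell in #A-59 (-0.34 and -0.31), while Kif23, Prc1 and Ect2 passed in no response.

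Espl1 (chr15:102296254-102324357), the separase that cleaves cohesin at anaphase, fell with the largest effect of its group. Its levels were 209 and 201 CPM at 0 h, 229 and 230.1 after 6 h and 147 and 140.4 after 18 h in parental cells. Espl1 in #A-59 had 200.3 and 182, then 190.1 and 180.0, then 107 and 121 CPM, and in #B-20 171 and 191, then 183 and 181, then 150.2 and 166 CPM. The log2 fold change of Espl1 at 18 h was -0.51 ± 0.09 (SE, adjusted p = 0.000116) in parental cells, -0.75 ± 0.09 (SE, adjusted p = 2.18e-06) in #A-59 and -0.19 ± 0.09 (SE, adjusted p = 0.102) in #B-20. Cdc20, the activator of the anaphase-promoting complex, had 166 and 167 CPM at 0 h, 171 and 179 after 6 h and 146 and 161 after 18 h in parental cells. Cdc20 in #A-59 had 158 and 158, then 166 and 154, then 107 and 142 CPM, and in #B-20 138 and 178, then 138 and 176, then 129.9 and 168 CPM. It did not pass in any response, and its replicates in #B-20 and at 18 h in #A-59 were far apart. Ube2c, the ubiquitin-conjugating enzyme of that complex, had 169 and 163 CPM at 0 h, 148 and 149.7 after 6 h and 141 and 138 after 18 h in parental cells. Ube2c in #A-59 had 181 and 164, then 138 and 147, then 126 and 128 CPM, and in #B-20 171 and 186, then 175 and 175, then 136 and 157 CPM. It fell in #A-59 (-0.45 ± 0.09 SE, adjusted p = 0.00036), a call kept under all alternatives, and had -0.25 ± 0.09 (SE, adjusted p = 0.0229) and -0.28 ± 0.09 (SE, adjusted p = 0.0152) in parental cells and #B-20. Pttg1, the securin that holds separase inactive, passed in no response (-0.03, -0.27 and -0.14).

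Top2a, the topoisomerase that disentangles sister chromatids, had 1335 and 1224 CPM at 0 h, 1242 and 1206 after 6 h and 1028 and 1007 after 18 h in parental cells. Top2a in #A-59 had 1231 and 1288, then 1142 and 1416, then 834 and 938 CPM, and in #B-20 1594 and 1477, then 1451 and 1428, then 1266 and 1305 CPM. It fell in parental cells (-0.33 ± 0.09 SE, adjusted p = 0.00738) and #A-59 (-0.51 ± 0.09 SE, adjusted p = 0.000234) and not by the FDR in #B-20 (-0.26 ± 0.09 SE, adjusted p = 0.0393). Smc4, a core subunit of condensin, had 594 and 556 CPM at 0 h, 525 and 568 after 6 h and 562 and 549 after 18 h in parental cells. Smc4 in #A-59 had 444 and 529.8, then 322 and 527, then 430.4 and 471 CPM, and in #B-20 643 and 588, then 564 and 585, then 521 and 554 CPM. It passed in no response, and replicate 1 of #A-59 at 6 h was again the lowest library. Of the other condensin genes, Ncapg and Ncaph fell in #A-59 (-0.45 and -0.40), and Smc2 and Ncapd2 passed in no response. Mki67, whose protein coats mitotic chromosomes and marks cycling cells, had 3497 and 3482 CPM at 0 h, 2672 and 2680.2 after 6 h and 3122 and 3176 after 18 h in parental cells. Mki67 in #A-59 had 3589.7 and 3715, then 2657 and 3625, then 2858 and 3136 CPM, and in #B-20 3762 and 3449.5, then 2941 and 2712, then 3533 and 3412 CPM. Its estimates at 18 h were -0.15 ± 0.10 (SE, adjusted p = 0.275), -0.29 ± 0.10 (SE, adjusted p = 0.0343) and -0.05 ± 0.10 (SE, adjusted p = 0.73). Foxm1, a transcription factor of many of the genes described here, had 96.2 and 89.6 CPM at 0 h, 113 and 105 after 6 h and 97.8 and 90.9 after 18 h in parental cells. Foxm1 in #A-59 had 88.9 and 73.9, then 95.2 and 82.2, then 75.2 and 75.3 CPM, and in #B-20 88.9 and 82.5, then 92.0 and 81.6, then 97.0 and 99.9 CPM. Neither of them passed the FDR in any response.

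**Figure D3:**
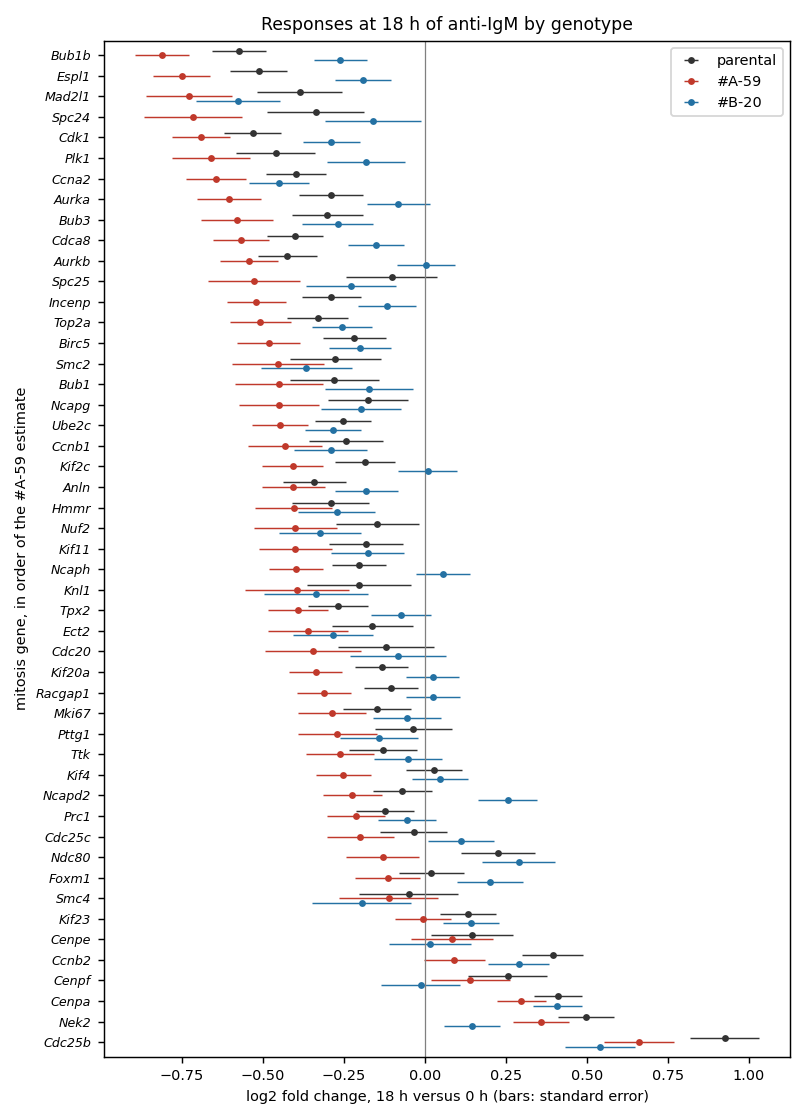
Log2 fold change at 18 h against 0 h of anti-IgM with its standard error (bars) for the 49 mitosis genes (rows, in order of the #A-59 estimate) in parental cells, #A-59 and #B-20. For each of the 49 genes the #A-59 estimate lay below the parental estimate, and for 44 the #B-20 estimate lay above that of #A-59. The genes share the same libraries, and the share of all genes with these signs is not given.

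Whether the response of a clone differed from that of parental cells was tested as the difference of the 2 responses, in which both clones share the parental libraries. None of the 49 genes passed the FDR for #A-59 at 6 h or 18 h or for #B-20 at 6 h or 18 h in edgeR, nor in DESeq2. At an unadjusted p under 0.05 there were 1, 5, 1 and 7 genes in edgeR, counts given without the share of all genes under that p. Among all genes the FDR was passed by 0.646%, 0.0392%, 0.183% and 0.222%, and the FDR and fold by 0.339%, 0.0326%, 0.131% and 0.163%, so that few genes of any kind passed these tests. At 18 h the estimate for #A-59 lay below 0 for all 49 genes, with a median of -0.20 and a range from -0.42 (Spc25) to -0.06 (Cenpe), beside a median of -0.03 over all genes. As the 49 genes share the same libraries, their common sign is not 49 separate results. Without replicate 1 of #A-59 at 18 h this median of the 49 genes was -0.10, with 0 genes at an unadjusted p under 0.05, and without replicate 2 it was -0.29, with 20 genes. It was -0.13 without replicate 2 of parental cells at 0 h, also with 0 genes, and between -0.24 and -0.19, with 0 to 5 genes, without each of the other 5 libraries. For #B-20 at 18 h the median was 0.04, and the lowest adjusted p was that of Aurkb (0.43 ± 0.13 SE, adjusted p = 0.124). Without replicate 2 of #A-59 at 6 h, 1 gene passed in the test of #A-59 at 6 h.

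The response of #B-20 minus that of #A-59 at 18 h was compared as well, a test added after the responses had been seen. The median over the 49 genes was 0.25, against 0.04 over all genes, and 44 estimates lay above 0. In edgeR 0 of 49 genes passed the FDR, with 19 at an unadjusted p under 0.05, all of them higher in #B-20, and DESeq2 passed 3. Neither the 19 genes nor the 44 estimates have the share of all genes beside them, and the 49 genes share the same libraries. Without replicate 1 of #A-59 at 18 h the median was 0.16, with 11 genes at an unadjusted p under 0.05, and without each of the other 7 libraries it lay between 0.23 and 0.33, with 14 to 25 genes. The backgrounds were 0.0522% for the FDR and 0.0326% for FDR and fold. Bub1b (0.55 ± 0.12 SE, adjusted p = 0.0434), Espl1 (0.56 ± 0.12 SE, adjusted p = 0.0544) and Aurkb (0.55 ± 0.13 SE, adjusted p = 0.0639) had the lowest adjusted p. Across the 49 genes this difference moved with GC content (Spearman's rho 0.52, described over genes that share the same libraries), and with a correction for GC content the median was 0.29 and 0 genes passed.

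Compared with parental cells at the same time, few mitosis genes differed in the clones. In #A-59 0, 3 and 2 genes passed the FDR at 0, 6 and 18 h, beside 9.56%, 22.7% and 10.4% of all genes (4.78%, 7.91% and 4.92% with the fold). At 0 h, 3 genes had an unadjusted p under 0.05, and DESeq2 passed 1. Cenpa was lower than in parental cells at 6 h (-0.43 ± 0.08 SE, adjusted p = 0.000205) and at 18 h (-0.30 ± 0.08 SE, adjusted p = 0.00787). Espl1 was lower at 6 h (-0.31 ± 0.09 SE, adjusted p = 0.00968), Cdc25b at 18 h (-0.45 ± 0.11 SE, adjusted p = 0.00531), and Kif4, a motor on chromosome arms, higher at 6 h (0.31 ± 0.09 SE, adjusted p = 0.00929). Only the lower level of Cenpa at 6 h held without any library of its comparison in turn. The count at 6 h was 12 without replicate 2 and 5 without replicate 1 of #A-59, and 1 without either parental library. That at 18 h was 5 without replicate 2 of #A-59 and 0 without any of the other 3 libraries.

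In #B-20 1, 3 and 6 genes passed at 0, 6 and 18 h, beside 10.7%, 14.2% and 14.2% of all genes (5.16%, 6.73% and 6.21% with the fold). Kif4 was higher than in parental cells at each time. Its levels were 111 and 96.4 CPM at 0 h, 107 and 106 after 6 h and 106 and 106 after 18 h in parental cells. Kif4 in #A-59 had 131 and 127, then 124 and 139.9, then 106 and 111 CPM, and in #B-20 139 and 132, then 134 and 137, then 136 and 144 CPM. The log2 fold change of Kif4 was 0.39 ± 0.09 (SE, adjusted p = 0.00336), 0.34 ± 0.09 (SE, adjusted p = 0.00662) and 0.40 ± 0.09 (SE, adjusted p = 0.00186). Cenpa (-0.32 ± 0.08 SE, adjusted p = 0.00377) and Espl1 (-0.34 ± 0.09 SE, adjusted p = 0.00875) were lower at 6 h. At 18 h Bub1b was higher (0.55 ± 0.08 SE, adjusted p = 6.46e-05), as were Aurkb (0.38 ± 0.09 SE, adjusted p = 0.00429) and Ncaph (0.35 ± 0.08 SE, adjusted p = 0.0048), whereas Cdc25b (-0.53 ± 0.11 SE, adjusted p = 0.00112) and Nek2 (-0.42 ± 0.09 SE, adjusted p = 0.00135) were lower. Only Bub1b at 18 h held without each library in turn, and at 6 h no call was left without any of the 4 libraries. At 0 h the call of Kif4 held only without replicate 1 of parental cells, and at 18 h the count was 1 and 2 without replicates 2 and 1 of parental cells, and 3 and 4 without replicates 2 and 1 of #B-20. The estimates went with GC content, with a Spearman's rho of -0.70 at 0 h, -0.55 at 6 h and -0.17 at 18 h across the 49 genes, and of -0.34, -0.27 and -0.06 across all genes. With a correction for GC content, 2, 3 and 15 genes passed in place of 1, 3 and 6. The calls of Kif4 and Espl1 at 6 h were lost with this correction, so the 3 genes that passed there were not the same.

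Between the clones, most calls were made at 18 h. At 0 h, 0 of 49 genes passed in edgeR and in DESeq2 (11 at an unadjusted p under 0.05, background 8.41%), and at 6 h Ccna2 alone was higher in #B-20 (0.35 ± 0.09 SE, adjusted p = 0.0076, background 18.7%). This call was lost without a filter on low counts, with a correction for GC content and with the libraries of the compared groups alone. With the GC correction 2 genes were higher and 3 lower in #B-20 at 6 h, beside 16.7% of all genes. At 18 h, 20 genes were higher in #B-20 and none was lower, beside 8.08% of all genes higher and 8.09% lower. With the fold the backgrounds were 3.85%, 5.82% and 4.82%. Bub1b had 168 and 194 CPM in #A-59 and 294 and 327 in #B-20 (0.78 ± 0.08 SE, adjusted p = 1.63e-06), and Aurka 49.8 and 60.4 and 84.0 and 85.1 (0.62 ± 0.10 SE, adjusted p = 0.000135). Cdk1 (0.54), Top2a (0.54) and Mad2l1 (0.54) were the next in size. The genes came from 9 of the 10 roles, and none from the centromere and kinetochore, where 5 of 8 had an unadjusted p under 0.05. The median was 0.39, against 0.02 over all genes. A total of 4 calls held without each library in turn (Bub1b, Aurka, Kif20a and Ncaph), as the count was 4 without replicate 1 of #A-59 and 8 without replicate 2 of #B-20 at 18 h. At 6 h the count was 16 without replicate 2 of #A-59 and 0 without either library of #B-20. The same libraries at 18 h enter the responses of the clones.

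**Figure D4:**
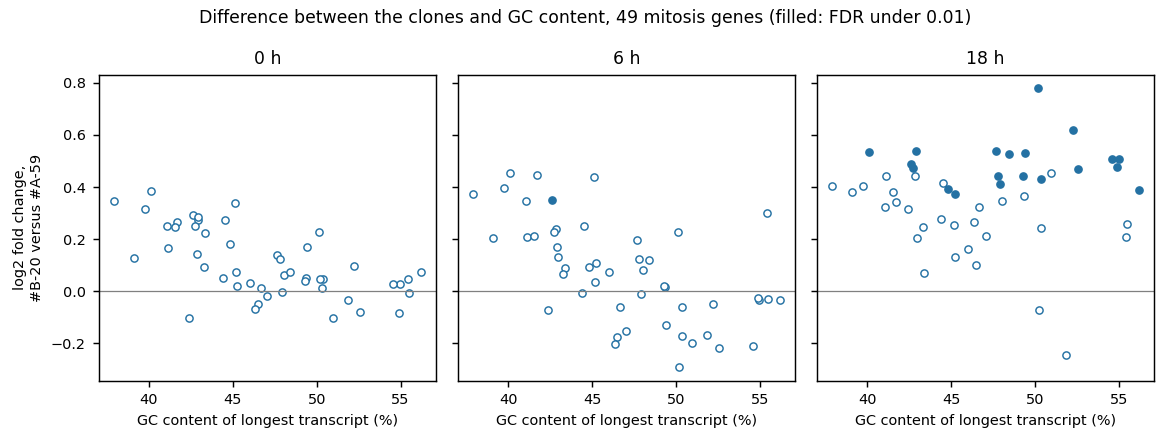
Log2 fold change of #B-20 against #A-59 (vertical axes) at 0, 6 and 18 h of anti-IgM for the 49 mitosis genes (points, filled at an FDR under 0.01) against the GC content of the longest transcript in percent (horizontal axes). The values went down with GC content at 0 h (Spearman's rho -0.63) and 6 h (-0.65) and not at 18 h (0.06), where 20 points are filled.

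The other genes of the pathway were listed by class, with 134 genes (133 tested) of Cdk1 regulation, the anaphase-promoting complex, kinetochores, spindles, cytokinesis, cohesin and the MuvB, E2F and Rb families. At 18 h, 30 fell and 5 rose in parental cells (22.6% and 3.76%, beside 16.2% and 16.4% of all genes). In #A-59, 56 fell and 4 rose (42.1% and 3.01%, beside 17.1% and 14.7%), and in #B-20 21 fell and 9 rose (15.8% and 6.77%, beside 11.4% and 11.4%). The fold was passed as well by 4 of the genes that fell in parental cells and by the same 4 in #A-59 (3.01%), fewer than the 4.75% and 4.59% of all genes, and by none in #B-20, beside 1.87%. They were Cdc25a, a phosphatase that acts at the start of S phase as well (-1.05 in parental cells, -1.02 in #A-59), Mybl2, a transcription factor that binds MuvB (-1.29 and -1.36), Tfdp1, the partner of E2F factors (-1.11 and -1.22), and Trip13, which disassembles checkpoint complexes (-1.17 and -1.36). In #B-20 they had -0.70, -0.61, -0.72 and -0.87. Of the kinetochore and checkpoint class 11, 20 and 7 of 36 genes fell in parental cells, #A-59 and #B-20, which is 30.6%, 55.6% and 19.4%, and of the Cdk1 regulators 7, 10 and 5 of 12, which is 58.3%, 83.3% and 41.7%.

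Most genes of S phase, the phase before G2, fell at 18 h in parental cells and #A-59. Of 43 such genes, all of which were tested, 32 fell in parental cells (74.4%, beside 16.2% of all genes). In #A-59 39 did so (90.7%, beside 17.1%), and 6 did so in #B-20 (14%, beside 11.4%). None rose, and they had a median log2 fold change of -0.56, -0.83 and -0.20. The fold was passed by 3 in parental cells (6.98%, beside 4.75% of all genes), 8 in #A-59 (18.6%, beside 4.59%) and 0 in #B-20 (beside 1.87%). Pold2, a subunit of DNA polymerase delta, had -1.56, -1.63 and -0.86, and Orc1, of the origin recognition complex, -1.23, -1.30 and -0.58. Mcm2, of the replicative helicase, had -1.02, -1.34 and -0.52. The difference between the S phase list and the mitosis genes was not tested. In sum, the 49 mitosis genes had 13419 and 12719 CPM at 0 h and 11712 and 11763 at 18 h in parental cells, 12927 and 13287 against 9857 and 11071 in #A-59, and 14445 and 13864 against 12964 and 13380.3 in #B-20. The S phase genes had 6991 and 6215 against 4759 and 4430.1 in parental cells, 6921 and 6256 against 3918 and 3988 in #A-59, and 7202 and 6535 against 5821 and 6147 in #B-20. At 6 h the mean sum of the S phase genes was higher than at 0 h. It was 7677 against 6603 CPM in parental cells, 7954 against 6588 in #A-59 and 7663 against 6868 in #B-20, which was not tested. For both lists the 18 h libraries did not overlap the 0 h libraries in any genotype. Mki67 alone, which passed the FDR in no response, made up 3490 of the mean sum of 13069 CPM of the mitosis genes in untreated parental cells.

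**Figure D5:**
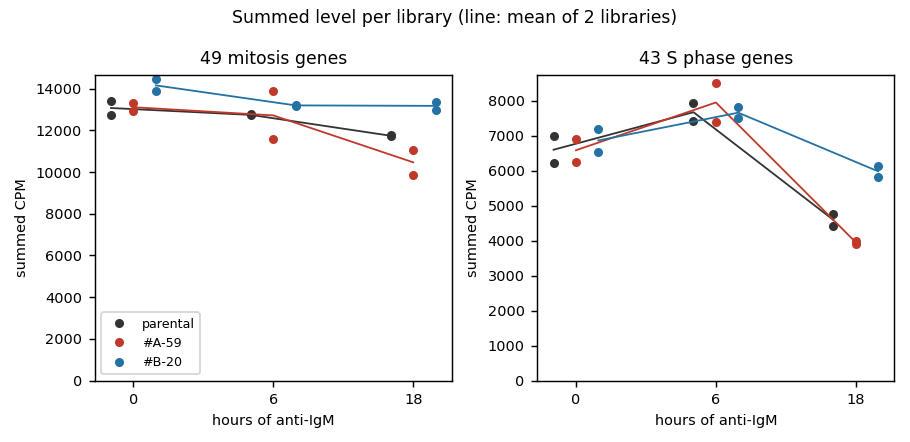
Summed CPM (vertical axes, from 0) of the 49 mitosis genes (left) and the 43 S phase genes (right) in each library (points) against hours of anti-IgM (the 3 times evenly spaced), with lines through the mean of 2 libraries of parental cells, #A-59 and #B-20. At 18 h the mitosis genes summed to 9857 to 13380.3 CPM, and the S phase genes to 3918 to 6147 CPM, with #A-59 lowest and #B-20 highest in both.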

How the data were processed

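Gene expression was measured by RNA-Seq in 18 libraries of WEHI-231 cells. The authors deposited raw read counts per Ensembl gene, 1 column per library, from non-stranded single-end reads. According to the submitters' processing notes, bcl2fastq 2.20.0.422, STAR 2.5 and featureCounts 1.5.0-p1 were used with GRCm38. No column of values per sample was left out (0).

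Groups were taken from the sample labels. edgeR 4.0.16 in R 4.3.3 (limma 3.58.1) was run on the deposited counts with filterByExpr, TMM normalisation and a robust quasi-likelihood fit of 9 group means, followed by Benjamini-Hochberg adjustment over 15318 genes. The limits were an FDR of 0.01, with or without a log2 fold change beyond 1 in either direction. SE is the standard error of the log2 fold change, and n = 2 libraries per group throughout. CPM values are TMM-scaled. Libraries held 11223588 to 29655262 counts, with at least 418 counts per mitosis gene and library, and for some genes the spread between 2 libraries was no larger than the counting error. Alternatives were DESeq2 1.42.0, its size factors, other filters on low counts (none, or 10 counts in every library), the libraries of the compared groups alone, the replicate number as a block, a loess correction for GC content (span 0.5), and each library left out. Where a group was left with 1 library, its spread was taken from the other groups. GC content and length were those of the longest GENCODE transcript, available for 99.2% of the genes tested. The scripts were tested on simulated data.

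The mitosis genes and the other lists were chosen with earlier results of these data known. Values per library were given for 19 listed members, the 3 highest and 3 lowest estimates of a response were eligible to be named, as was each member past the FDR between cell lines, and from other lists those past FDR and fold in the same direction in 2 or more genotypes. The comparison of the responses of both clones was added after the responses had been seen. Promoter windows were those of RefSeq for GRCm38.p6, and motifs were counted on both strands.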

Additional observations from a re-analysis of the deposited data

How the results depend on the processing

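No mitosis gene passed both FDR and fold in any of the 20 comparisons under any alternative, and none of the 86 member values past the FDR changed sign. Of these 86, DESeq2 kept 86, its size factors 83, no filter on low counts 75, the filter of 10 counts in every library 79, the GC correction 83, and the libraries of the compared groups alone 67. With 1 library left out, 179 of 344 values kept their call. The counts past the FDR that moved most in proportion are given below, and the cause was not tested. Most are given without the share of all genes past the FDR, which moved with the setting as well. They are not read as a result about the mitosis genes. Smaller moves are not listed. Among these, 33 genes fell in #A-59 at 18 h with no filter and 34 with GC correction and block, in place of 26. With the GC correction, 28 genes were higher in #B-20 than in #A-59 at 18 h, in place of 20.

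For parental cells at 6 h (2 genes, both higher), DESeq2 gave 4 higher and 1 lower, and its size factors 1 higher. No filter gave 0 higher and 1 lower, so neither Kif2c nor Cenpa was kept. The GC correction, with or without the replicate block, and the compared groups alone each gave 4 higher and 1 lower. At 18 h (13, beside 32.6% of all genes), no filter gave 21 (15.2% of the 33978 genes then tested) and the GC correction 20 (36.1%). With the block the GC correction gave 22 (39.3%), and the compared groups alone gave 29 (44.3%). #A-59 at 6 h (2) had 0 with the compared groups alone. #B-20 at 6 h (0) had 1 with no filter, with GC correction and block, and with the compared groups alone. #B-20 at 18 h (4) had 7 with DESeq2 and 10 with the GC correction, with or without the block.

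#A-59 against parental cells had 1 with DESeq2, 2 with the GC correction and 3 with the block added at 0 h (0), then 7, 9 with the block added, and 0 with the compared groups alone at 6 h (3). At 18 h (2) there were 5 with DESeq2, 1 with no filter, 6 with GC correction and block, and 5 with the compared groups alone. #B-20 against parental cells had 4 with no filter, 2 with the GC correction, 3 with the block added and 3 with the compared groups alone at 0 h (1). At 6 h (3, beside 14.2% of all genes) it had 6 with GC correction and block (19.2%) and 14 with the compared groups alone (22.9%). At 18 h (6) it had 12 with DESeq2, 14 with no filter, 15 with the GC correction with or without the block, and 11 with the compared groups alone. #B-20 against #A-59 had 2 with GC correction and block at 0 h (0). At 6 h (1) it had 5 with the GC correction with or without the block, 2 of them higher and 3 lower in #B-20. With DESeq2 it had 4, with no filter 5, with the filter of 10 counts 2, and with the compared groups alone 0. At 18 h (20) it had 33 with no filter, 31 with GC correction and block, and 10 with the compared groups alone. The response of #B-20 minus that of #A-59 at 18 h (0) had 3 with DESeq2 and 4 with no filter.

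With each library left out, the counts lay between 0 and 0 for parental cells at 6 h, 6 and 10 at 18 h, 0 and 8 for #A-59 at 6 h, 13 and 26 at 18 h, and 1 and 7 for #B-20 at 18 h. They lay between 1 and 12 for #A-59 against parental cells at 6 h, 0 and 5 at 18 h, 0 and 1 for #B-20 against parental cells at 0 h, 0 and 0 at 6 h, 1 and 4 at 18 h, 0 and 16 for #B-20 against #A-59 at 6 h, 4 and 20 at 18 h, and 0 and 1 for the difference of the #A-59 and parental responses at 6 h.

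Same-numbered libraries did not deviate together throughout: the correlation of deviations over 36 pairs of groups had a median of 0.078 (-0.026 to 0.32), with 14 pairs over 0.1, so the replicate numbers were not taken as a pairing. With the replicate block, all 86 values kept their call, and the count became 5 for #A-59 against parental cells at 6 h and 5 at 18 h, and 4 for #B-20 against #A-59 at 6 h.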
